A study of Mus musculus with 13 samples.

Results

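The collagen chain genes outside the cartilage collagens were followed in mouse embryonic fibroblasts (MEFs, cells grown out of embryos), 36 genes of the 43629 genes counted. They were taken as a list of gene symbols, and all 36 were matched to 1 Ensembl gene each. They comprised 7 fibrillar chains, 6 chains of type IV, 6 of type VI, 6 fibril-associated chains, 2 multiplexins, 2 chains of type VIII, 4 transmembrane collagens and 3 other chains.

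The study compared IMP1 and IMP2 (genes Igf2bp1 and Igf2bp2), related proteins that bind messenger RNA. RNA pulled down by immunoprecipitation (IP) was sequenced with 3 libraries each for IMP1 IP, IMP2 IP and IgG IP, where IgG is an antibody with no intended target. Total RNA was sequenced with 1 library each for IMP1 KO, IMP1 WT, IMP2 KO and IMP2 WT, where KO cells were deleted for the named gene and WT cells were wild type. All 13 libraries were from E12.5 (embryonic day) MEFs grown in medium with 10% serum, and the genotype of the cells used for the IPs was not given in the labels. The labels do not state whether the 3 replicates of an IP came from separate cultures, so p-values measure only the spread between these libraries, which may be technical. They do not say how many embryos or cell lines stand behind a KO or WT library either.

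Collagens are built from chains that wind around each other in groups, and each chain has its own gene. Fibrillar collagens form the tension-bearing fibres of connective tissue, type IV forms the sheet of the basement membrane, type VI forms beaded filaments around cells, and fibril-associated chains decorate the fibres. Fibroblasts are a main source of types I, III, V and VI, and the chains of 1 molecule have to be made in matching amounts.

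Gene counts ranged from 11430002 to 21756430 per library, and the floor used for an undetected gene, 3 counts, lay at 0.138 to 0.262 CPM (counts scaled to library size). Intervals and such floors cover counting error only. The collagen chains took 2.04 to 2.27% of gene counts in IMP1 IP, 1.32 to 1.68% in IMP2 IP and 1.48 to 1.5% in IgG IP. In total RNA they took 3.77% in IMP1 KO, 3.33% in IMP1 WT, 5.09% in IMP2 KO and 4.5% in IMP2 WT. Reads outside genes made up 9.667 to 9.742% of uniquely aligned records in IMP1 IP, 6.54 to 7.2% in IMP2 IP and 29.18 to 30.41% in IgG IP, so the IgG libraries stood apart in that measure. Igf2bp1 was at 3.28 CPM in IMP1 KO, against 32.05 CPM in IMP1 WT, and Igf2bp2 was at 28.17 CPM in IMP2 KO, against 147.5 CPM in IMP2 WT. Fibroblast markers summed to 14910 CPM in IMP1 KO and 25140 CPM in IMP1 WT, and to 24470 CPM in IMP2 KO and 28910 CPM in IMP2 WT. Of these 10 markers, 2 were 2-fold or more higher and 3 lower in IMP1 KO, and 3 were higher and 3 lower in IMP2 KO.

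**Figure D1:**
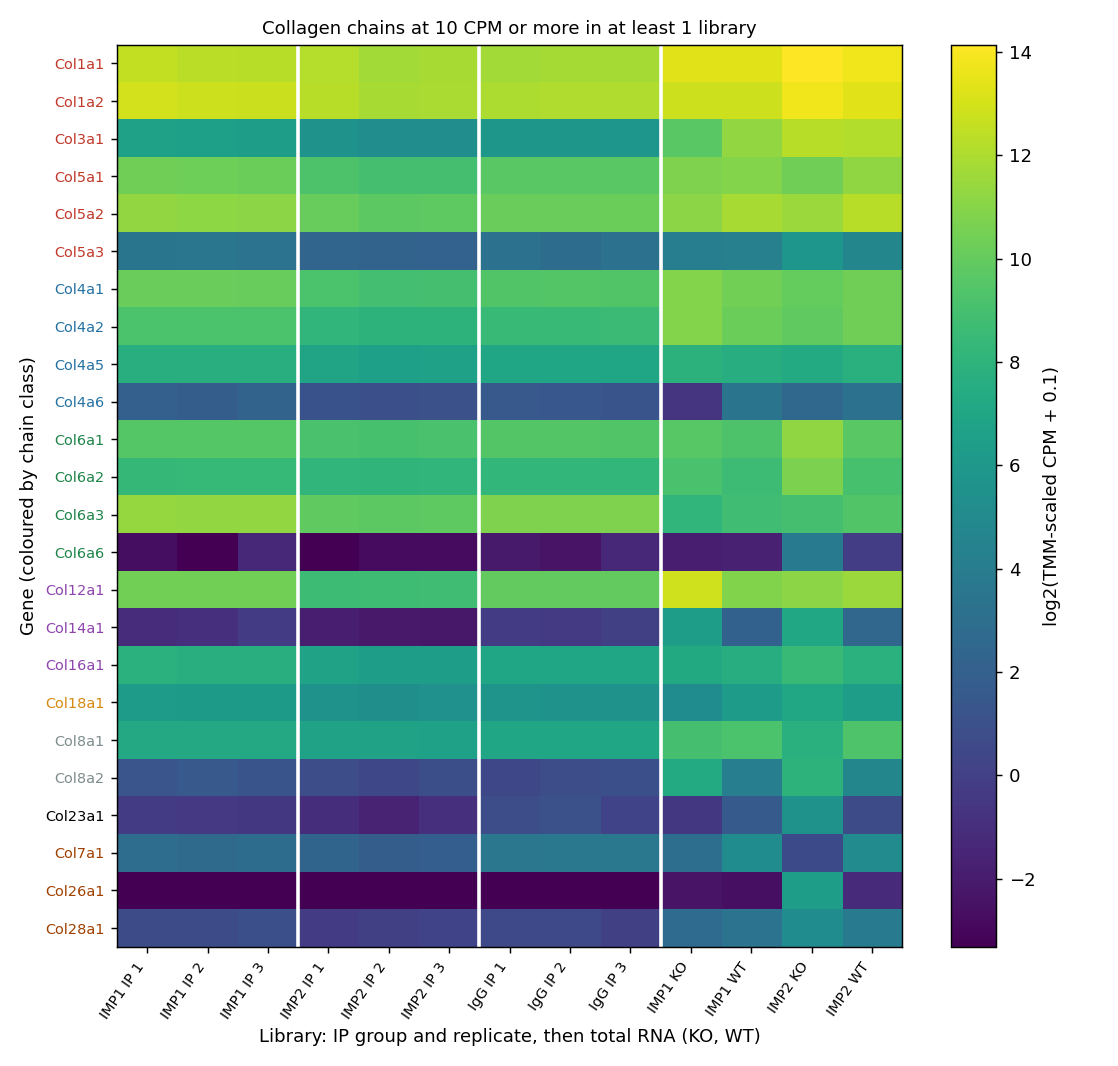
Level of the 24 collagen chains with at least 10 CPM in 1 library or more, as log2(CPM + 0.1), by library (columns) and gene (rows, coloured by chain class). IP and total RNA libraries were scaled separately by the trimmed mean of M values (TMM), so colours compare within each block. Col26a1 is above 10 CPM only in IMP2 KO, and Col14a1 and Col8a2 are brighter in both KO libraries than in both WT libraries.

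Pairs of these genes lie beside each other in the genome. Col4a1 (chr8:11198423-11312889) and Col4a2 (chr8:11312805-11449287) are transcribed away from each other from starts whose gene spans overlap by 85 bases, and Col6a1 (chr10:76708792-76726044) and Col6a2 (chr10:76595756-76623630) lie 85161 bases apart. Col3a1 and Col5a2 on chromosome 1 are 24624 bases apart, and Col4a6 and Col4a5 on chromosome X are 1274 bases apart. All positions are from RefSeq's GRCm38.p6 annotation of the mouse. Col4a1 with Col4a2, and Col6a1 with Col6a2, held close to each other in total RNA (below). So did Col1a1 with Col1a2, which lie on chromosomes 11 and 6. The log2 ratio of that type I pair changed from WT to KO by -0.05 (IMP1) and -0.03 (IMP2). Promoter windows of Col4a1, Col4a2, Col6a1 and Col6a2 are shown, and their part in these levels was not tested. Each runs from 250 bases before to 50 bases after an annotated start, from RefSeq, GRCm38.p6. For Col4a1 that start lies inside the gene span given above and not at its end (11312889), so its window is not placed on the overlap of the spans. The capitals in the first pair mark the 78 bases that both windows cover, read from opposite strands. The capitals in the second pair mark the GC box GGGCGG, searched on both strands.
Col4a1 promoter, chr8:11312777-11313076, minus strand: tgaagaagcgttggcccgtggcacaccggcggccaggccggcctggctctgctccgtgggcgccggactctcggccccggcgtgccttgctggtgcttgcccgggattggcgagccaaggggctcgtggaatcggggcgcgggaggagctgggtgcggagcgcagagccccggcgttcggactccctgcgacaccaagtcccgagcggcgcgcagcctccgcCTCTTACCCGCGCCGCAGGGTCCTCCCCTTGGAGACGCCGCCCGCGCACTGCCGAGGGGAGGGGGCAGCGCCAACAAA
Col4a2 promoter, chr8:11312555-11312854, plus strand: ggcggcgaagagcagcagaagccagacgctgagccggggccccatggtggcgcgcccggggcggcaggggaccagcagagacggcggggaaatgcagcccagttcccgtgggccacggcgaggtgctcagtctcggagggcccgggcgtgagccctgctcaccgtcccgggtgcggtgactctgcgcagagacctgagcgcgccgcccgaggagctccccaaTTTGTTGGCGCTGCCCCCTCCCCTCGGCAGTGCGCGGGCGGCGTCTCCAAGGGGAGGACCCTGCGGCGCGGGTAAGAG
Col6a1 promoter, chr10:76725995-76726294, minus strand: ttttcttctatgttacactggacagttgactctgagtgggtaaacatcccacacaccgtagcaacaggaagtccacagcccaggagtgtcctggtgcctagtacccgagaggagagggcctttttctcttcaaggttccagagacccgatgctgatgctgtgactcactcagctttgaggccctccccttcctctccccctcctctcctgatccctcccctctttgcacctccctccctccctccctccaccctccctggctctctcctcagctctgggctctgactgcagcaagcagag
Col6a2 promoter, chr10:76623581-76623880, minus strand: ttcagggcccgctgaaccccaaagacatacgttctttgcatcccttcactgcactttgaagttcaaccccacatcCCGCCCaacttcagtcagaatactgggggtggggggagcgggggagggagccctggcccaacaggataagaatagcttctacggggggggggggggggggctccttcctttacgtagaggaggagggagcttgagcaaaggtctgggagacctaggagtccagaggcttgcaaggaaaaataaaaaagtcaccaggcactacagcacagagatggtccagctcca
The Col4a1 and Col4a2 windows were 74.0% and 73.7% G and C, with 1 and 3 GC boxes and 1 CCAAT box each. The Col6a1 window held 0 GC boxes and the Col6a2 window held 1, at 57.3% and 56.7% G and C. Promoter windows were found for 29 of the 36 collagen genes, 31 windows in all, and 61.3% of them held GGGCGG, against 35.7% of all 32851 windows. CCAAT was in 35.5% of collagen windows, against 37.4% of all, and TATAAA in 9.68%, against 13.6%. The median G and C content was 60.0% in the collagen windows and 52.7% over all windows, and no comparison matched on base composition was made.

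The first question was which collagen messages were richer in IMP1 IP than in IgG IP. Of the 36 chains, 25 passed a filter on low counts and were tested, and 20 of those were above the filter's minimum of 0.565 CPM in all 9 IP libraries. The other 5 were Col4a4, Col14a1, Col17a1, Col20a1 and Col23a1. Of these Col4a4, Col14a1, Col20a1 and Col23a1 passed only with the help of the IgG libraries, where they were highest. Their direction against IgG IP is set by the filter and is not counted as a finding. Col17a1 also reached the minimum in 2 IMP1 IP and 2 IMP2 IP libraries, so the filter did not set its direction. It was lower in IMP1 IP (-1.60) and IMP2 IP (-1.21), with at most 2.29 CPM in IgG IP. Of the 20, 18 were higher in IMP1 IP, Col7a1 was lower and Col28a1 did not pass the test (edgeR's quasi-likelihood test, adjusted p under 0.05), with Col6a1 and Col6a2 turning to slightly below 0 under upper quartile or total count scaling. The Col5a3 call was lost under upper quartile scaling (0.13), total count scaling (0.15), with protein-coding genes only (0.25) and by DESeq2 (0.30), and the Col8a2 call under upper quartile scaling (0.47) and by DESeq2 (0.63). Over all 14076 genes tested, 63.6% were called, 31.7% higher and 31.9% lower. The median log2 fold change was 0.62 for the 20 chains and -0.03 for all genes tested. All 20 had groups that did not overlap, against 69.6% of all genes. Of the chains with the 10 CPM level in an IP library, 16 of 17 were higher.

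The fibrillar chains were higher in IMP1 IP for 6 of 6 tested, with a median log2 fold change of 0.65. Col5a2, a chain of type V collagen, which sets fibre thickness, had 2499, 2330 and 2227 CPM in IMP1 IP, 1062, 852.5 and 881.5 CPM in IMP2 IP, and 1133, 1138 and 1172 CPM in IgG IP. Its IMP1 IP libraries all stood above every other IP library, and it had the largest fold change of the class, 1.03 on the log2 scale (SE 0.0564, adjusted p 5.47e-13). Its partner Col5a1 had 1322, 1268 and 1218 CPM in IMP1 IP, 625.8, 504.5 and 520.3 CPM in IMP2 IP, and 806, 830.2 and 816.3 CPM in IgG IP. The 3 groups of Col5a1 did not overlap, with IMP1 IP highest and IMP2 IP lowest.
The type I chains make up the bulk of fibroblast collagen. Col1a1 had 5982, 5193 and 4958 CPM in IMP1 IP, 4792, 3437 and 3631 CPM in IMP2 IP, and 3432, 3596 and 3573 CPM in IgG IP. Col1a2 had 8036, 7266 and 6986 CPM in IMP1 IP, 4974, 3723 and 3952 CPM in IMP2 IP, and 4120, 4288 and 4226 CPM in IgG IP. Both were higher in IMP1 IP than in IgG IP, with log2 fold changes of 0.61 and 0.82, while the IMP2 IP libraries overlapped the IgG range. Replicate 1 of IMP2 IP was the highest of its group for 16 of the 20 chains, and replicate 1 of IMP1 IP for 11 of 20.
Col3a1, the chain of type III collagen, had 102, 91.2 and 90.3 CPM in IMP1 IP, 50.2, 37.8 and 38.3 CPM in IMP2 IP, and 59.4, 61.7 and 57.5 CPM in IgG IP. The groups of Col3a1 did not overlap. Col5a3, a rarer chain of type V, had 10.99, 11.4 and 9.77 CPM in IMP1 IP, 5.06, 4.62 and 4.31 CPM in IMP2 IP, and 9.64, 7.25 and 9.01 CPM in IgG IP. Its IMP1 IP libraries stood just above the IgG libraries, and its fold change over IgG was the smallest of the class, 0.30 on the log2 scale (SE 0.114, adjusted p 0.0251). That call was lost without IgG IP replicate 2 (0.21, adjusted p 0.136), without IMP1 IP replicate 1 (0.29, adjusted p 0.0577) and without IMP1 IP replicate 2 (0.27, adjusted p 0.0806).

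Of the type IV chains tested, 4 of 5 were higher in IMP1 IP, and Col4a4 was lower. Col4a1, which with Col4a2 forms the common basement membrane trimer, had 1132, 1113 and 1074 CPM in IMP1 IP, 592.8, 489.2 and 518.3 CPM in IMP2 IP, and 682.9, 694.8 and 680.5 CPM in IgG IP. Col4a2 had 581.2, 589.7 and 594.6 CPM in IMP1 IP, 295.4, 247.3 and 252.5 CPM in IMP2 IP, and 364, 364.5 and 375.2 CPM in IgG IP. For both genes the 3 groups were separate, in the same order. Their log2 fold changes over IgG IP were 0.69 for Col4a1, the highest of the class (SE 0.047, adjusted p 2.27e-11), and 0.68 for Col4a2.
Col4a5, a chain of the type IV network that is mutated in human Alport syndrome, had 208.5, 208.6 and 197.5 CPM in IMP1 IP, 116.5, 92.2 and 100.3 CPM in IMP2 IP, and 131.2, 125.6 and 128.1 CPM in IgG IP. Col4a6, its neighbour on chromosome X, had 4.02, 3.47 and 4.58 CPM in IMP1 IP, 2.05, 1.85 and 1.93 CPM in IMP2 IP, and 2.88, 2.56 and 2.22 CPM in IgG IP. Both had IMP1 IP above the other groups, with log2 fold changes over IgG IP of 0.67 for Col4a5 and 0.66 for Col4a6. Col4a4, at 0.591, 0.442 and 0.433 CPM in IMP1 IP, 0.171, 0.176 and 0.164 CPM in IMP2 IP, and 1.80, 1.62 and 1.60 CPM in IgG IP, was the lowest of the class against IgG IP (-1.76, SE 0.279, adjusted p 1.03e-05). It is 1 of the chains that passed through IgG, and its gene span overlaps that of Col4a3 by 114 bases.

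The type VI chains split. Col6a3, the large chain of type VI collagen, had 2619, 2589 and 2551 CPM in IMP1 IP, 952.9, 842.5 and 898.5 CPM in IMP2 IP, and 1741, 1758 and 1743 CPM in IgG IP. Its 3 groups were far apart, and its log2 fold change of IMP1 IP over IgG IP was 0.57, the highest of the class (SE 0.0358, adjusted p 6.77e-12). The other chains of the trimer moved little. Col6a1 had 755.7, 749.8 and 749.3 CPM in IMP1 IP, 567.1, 531.7 and 559.1 CPM in IMP2 IP, and 695.3, 714.2 and 692.1 CPM in IgG IP. Col6a2 had 315.4, 332.1 and 337.2 CPM in IMP1 IP, 295.1, 270.8 and 282.9 CPM in IMP2 IP, and 300.9, 299.6 and 309.2 CPM in IgG IP. Over IgG IP they were 0.10 (Col6a1, the lowest of the class, SE 0.0319, adjusted p 0.00833) and 0.11 (Col6a2, adjusted p 0.0112) higher on the log2 scale in IMP1 IP. These 2 small differences turned to -0.07 and -0.06 under upper quartile scaling and to -0.05 and -0.04 under total count scaling, and the Col6a2 call was lost without IMP1 IP replicate 3 (0.10, adjusted p 0.0621). Col6a4, Col6a5 and Col6a6 were not tested. Col6a6 was at 0.0591, 0 and 0.309 CPM in IMP1 IP, 0, 0.0440 and 0.0411 CPM in IMP2 IP, and 0.144, 0.0853 and 0.277 CPM in IgG IP, close to the floor throughout.

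Of the fibril-associated chains tested, 2 of 4 were higher in IMP1 IP than in IgG IP. Col12a1, which coats type I fibres, had 1376, 1405 and 1395 CPM in IMP1 IP, 407.9, 420.9 and 436 CPM in IMP2 IP, and 1002, 976.8 and 985.1 CPM in IgG IP. The IMP2 IP libraries stood far below the others, and the log2 fold change of IMP1 IP over IgG IP was 0.49. Col16a1 had 225.4, 206.4 and 202.2 CPM in IMP1 IP, 108.9, 83.8 and 88.7 CPM in IMP2 IP, and 124.1, 121.8 and 123.6 CPM in IgG IP. It was the highest of the class against IgG IP (0.78, SE 0.0643, adjusted p 5.59e-10), and its groups did not overlap. Col20a1 was the lowest (-1.61, SE 0.36, adjusted p 0.00051), with at most 0.768 CPM in IMP1 IP, 0.287 CPM in IMP2 IP and 1.94 CPM in IgG IP. Col14a1, at 0.355, 0.442 and 0.742 CPM in IMP1 IP, 0.171, 0.132 and 0.123 CPM in IMP2 IP, and 0.720, 0.682 and 0.901 CPM in IgG IP, did not pass the test in IMP1 IP (-0.59, adjusted p 0.165). Col14a1 and Col20a1 are among the chains that passed through IgG.

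Outside the 4 main classes, Col18a1, the multiplexin whose end fragment is endostatin, had 75.3, 71.9 and 71.8 CPM in IMP1 IP, 50.1, 41.1 and 46.3 CPM in IMP2 IP, and 52.5, 48.4 and 49.6 CPM in IgG IP. Col8a1, a type VIII chain, had 148.9, 148.6 and 152.2 CPM in IMP1 IP, 106.6, 108 and 103 CPM in IMP2 IP, and 123.7, 122.6 and 121.9 CPM in IgG IP. Both stood highest in IMP1 IP, with log2 fold changes over IgG IP of 0.54 for Col18a1 and 0.29 for Col8a1. Col8a2, the other type VIII chain, had 2.36, 2.78 and 2.23 CPM in IMP1 IP, 1.65, 1.28 and 1.72 CPM in IMP2 IP, and 1.295, 1.62 and 1.80 CPM in IgG IP. Its call against IgG IP (0.64, adjusted p 0.0121) was lost without IgG IP replicate 1 (0.51, adjusted p 0.0692) and without IMP1 IP replicate 2 (0.55, adjusted p 0.0511).
Col7a1, which forms the anchoring fibrils under the epidermis, ran the other way. It had 7.51, 6.44 and 7.05 CPM in IMP1 IP, 4.78, 3.43 and 3.65 CPM in IMP2 IP, and 11.9, 12.7 and 12.8 CPM in IgG IP. Its IgG libraries were all above every IMP1 and IMP2 library, and its log2 fold change over IgG IP was -0.83 (adjusted p 1.4e-06) in IMP1 IP. Among the chains near the filter, Col23a1 had 0.709, 0.632 and 0.618 CPM in IMP1 IP, 0.398, 0.220 and 0.411 CPM in IMP2 IP, and 1.66, 1.88 and 1.04 CPM in IgG IP. Col28a1 had 1.60, 1.45 and 1.86 CPM in IMP1 IP, 0.739, 0.880 and 1.07 CPM in IMP2 IP, and 1.37, 1.36 and 0.901 CPM in IgG IP. Col28a1 differed from IgG IP in neither IP past the threshold (adjusted p 0.125 in IMP1 IP and 0.191 in IMP2 IP). Col26a1 and Col13a1 had 0 counts in all 9 IP libraries. The other chains that were not tested (Col24a1, Col4a3, Col6a4, Col6a5, Col15a1, Col19a1, Col22a1 and Col25a1) stood at or below 1.295 CPM in every IP library.

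**Figure D2:**
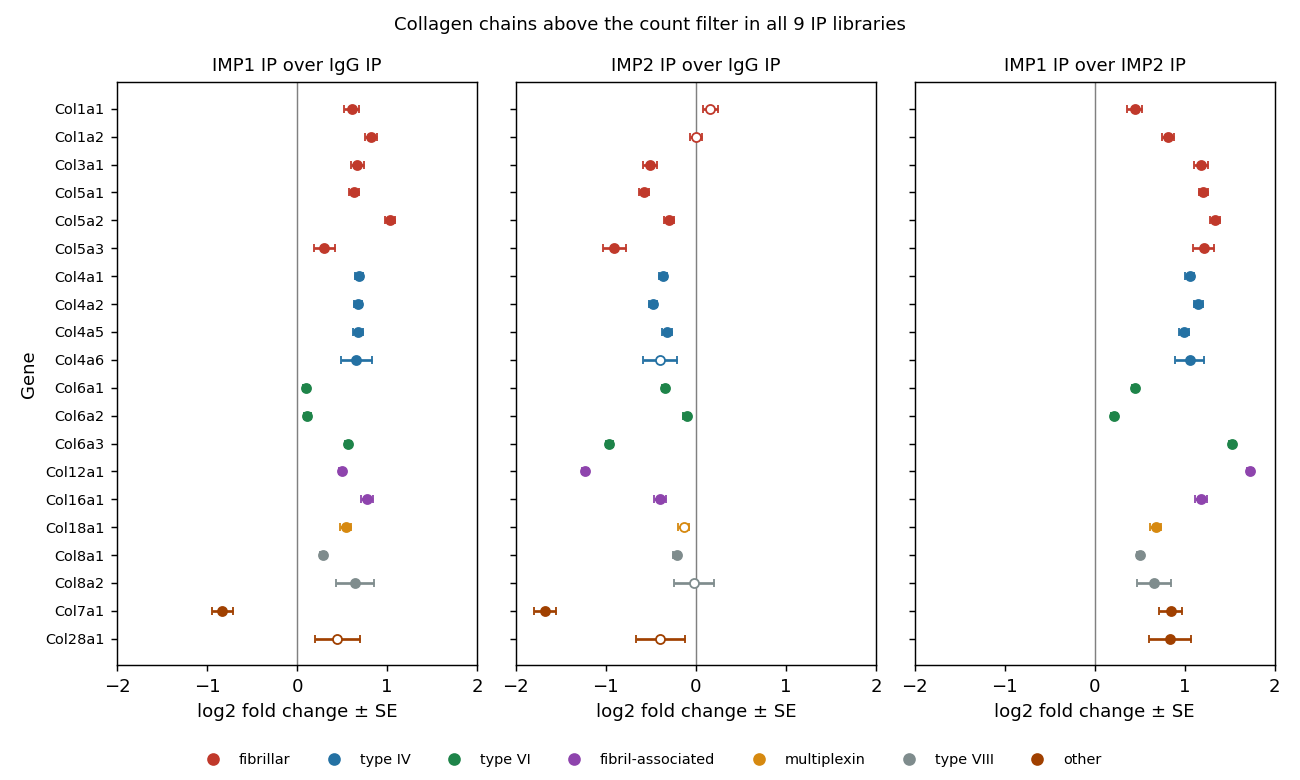
Log2 fold changes (horizontal axis, ± SE) of the 20 collagen chains above the count filter in all 9 IP libraries, for IMP1 IP over IgG IP, IMP2 IP over IgG IP and IMP1 IP over IMP2 IP (3 libraries a group). Filled points passed the test and open points did not. In the left panel 18 points lie to the right of 0 as calls, in the middle panel 14 lie to the left as calls, and in the right panel all 20 lie to the right, from 0.22 (Col6a2, which is at -0.11 under total count scaling) to 1.72 (Col12a1).

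Against the same IgG libraries, the collagen chains were lower in IMP2 IP. Of the 20 chains above the filter's minimum in all 9 libraries, 14 were lower in IMP2 IP and 6 (Col1a1, Col1a2, Col4a6, Col18a1, Col8a2 and Col28a1) did not pass the test. Over all genes tested 77.6% were called, 37.3% lower and 40.3% higher. The median log2 fold change was -0.38 for the 20 chains and 0.04 for all genes tested. Of all 25 chains tested, 0 were higher by edgeR's quasi-likelihood test, 0 at an unadjusted p under 0.05 and 0 by DESeq2, but 2 (Col1a1 at 0.34 and Col1a2 at 0.18) were called higher under total count scaling. Groups did not overlap for 15 of the 20, against 78.3% of all genes. The comparisons of IMP1 IP and of IMP2 IP with IgG IP share the 3 IgG libraries.
The extremes by class were as follows. Among fibrillar chains Col1a1 was the highest (0.16, SE 0.0798, adjusted p 0.07) and Col5a3 the lowest (-0.91, SE 0.126, adjusted p 1.03e-06). Among type IV chains Col4a5 was the highest (-0.32, SE 0.058, adjusted p 3.09e-05) and Col4a4 the lowest (-3.24, SE 0.326, adjusted p 8.15e-09). In type VI the highest was Col6a2 (-0.10, SE 0.0373, adjusted p 0.018) and the lowest Col6a3 (-0.96, SE 0.0362, adjusted p 6.68e-16). In the fibril-associated class the highest was Col16a1 (-0.40, SE 0.0664, adjusted p 1.14e-05) and the lowest Col20a1 (-3.29, SE 0.434, adjusted p 5.07e-07), with Col12a1 at -1.23 (adjusted p 1.98e-18). Col4a4 and Col20a1 passed through IgG, so their direction here is set by the filter and is not counted as a finding. Apart from them, the lowest were Col4a2 (-0.48) in type IV and Col12a1 in the fibril-associated class.
Col1a1 and Col1a2 depended on IMP2 IP replicate 1, which was high for both. Without IMP2 IP replicate 1 Col1a1 was at 0.03 (adjusted p 0.499), and it was called higher in IMP2 IP without IMP2 IP replicate 2 (0.27, adjusted p 0.00479), without IMP2 IP replicate 3 (0.23, adjusted p 0.0144) and without IMP1 IP replicate 1 (0.18, adjusted p 0.0369). Col1a2, at 0.0015 (adjusted p 0.985), was called lower without IMP2 IP replicate 1 (-0.11, adjusted p 0.00155). Col18a1 was called lower without IMP2 IP replicate 1 (-0.17, adjusted p 0.00334) and without IMP1 IP replicate 3 (-0.15, adjusted p 0.0463). Col4a6 was called lower without IgG IP replicate 3 (-0.49, adjusted p 0.0423) and without IMP1 IP replicate 3 (-0.41, adjusted p 0.0484). Both were also called lower with DESeq2 size factors (-0.20 and -0.46), upper quartile scaling (-0.32 and -0.57), protein-coding genes only (-0.25 and -0.51) and only the libraries compared (-0.18 and -0.44). Further calls of Col18a1 as lower came by DESeq2 (-0.20), with at least 10 CPM in 3 libraries (-0.31) and with a replicate block (-0.13). The small Col6a2 difference was lost without IgG IP replicate 3 (-0.08), IMP1 IP replicate 2 (-0.09), IMP2 IP replicate 2 (-0.06) or IMP2 IP replicate 3 (-0.09), with adjusted p of 0.0551 to 0.182, and under total count scaling it turned to 0.07.

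Set directly against each other, IMP1 IP held more of the collagen chains than IMP2 IP. All 20 chains above the filter's minimum in all 9 libraries were higher in IMP1 IP (under total count scaling Col6a2 was at -0.11, and the calls of Col1a1, Col8a2 and Col28a1 were lost at 0.12, 0.34 and 0.51), with groups that did not overlap, and 0 of the 25 tested were lower by edgeR, at an unadjusted p under 0.05 or by DESeq2. Over all genes 71.4% were called, 34.1% higher and 37.3% lower, 73.2% had groups that did not overlap, and the median log2 fold change was 1.03 for the 20 chains and -0.01 for all genes. The only chain of the 25 that did not pass the test was Col17a1 (-0.38, adjusted p 0.318), a transmembrane collagen of epithelial hemidesmosomes. Col12a1 had the largest change of the 20, 1.72 (SE 0.0321, adjusted p 5.96e-21), followed by Col6a3 at 1.53, the highest of type VI (SE 0.0365, adjusted p 1.17e-19).
The class medians were 1.19 for the 6 fibrillar chains, 1.06 for the 5 of type IV, 0.44 for the 3 of type VI and 1.70 for the 4 fibril-associated chains. The type IV median includes Col4a4, and the fibril-associated median includes Col14a1 and Col20a1. These chains passed through IgG and had few counts in IMP1 IP and IMP2 IP. Within the fibrillar class Col5a2 was the highest (1.34, SE 0.0566, adjusted p 1.98e-15) and Col1a1 the lowest (0.44, SE 0.0798, adjusted p 3.41e-05). Within type IV the range ran from Col4a4 (1.49, SE 0.424, adjusted p 0.00394) down to Col4a5 (1.00, SE 0.0556, adjusted p 2.83e-13). Col6a2 was the lowest of type VI (0.22, SE 0.0369, adjusted p 1.92e-05), and it reversed to -0.11 under total count scaling, which put the median of all genes at -0.34, against -0.01 with TMM. Within the fibril-associated class Col14a1 was the highest (1.82, SE 0.473, adjusted p 0.00159) and Col16a1 the lowest (1.18, SE 0.0635, adjusted p 1.49e-13). Among the chains that passed through IgG, the Col20a1 call (1.68) was lost without IMP1 IP replicate 1 (1.24, adjusted p 0.099) or IMP2 IP replicate 2 (1.38, adjusted p 0.0511) and was 2.65 without IMP2 IP replicate 3. The Col23a1 call (0.93, adjusted p 0.0345) was lost without any 1 of the 3 IMP1 IP libraries or IMP2 IP replicate 2, with values of 0.67 to 0.98 and adjusted p of 0.0558 to 0.15.

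The proteins that build collagen were set beside the chains. Of 13 prolyl and lysyl modification genes tested, 11 were higher and 2 lower in IMP1 IP against IgG IP, and 10 were higher and 2 lower in IMP2 IP. Of 13 chaperone and export genes, 8 were higher and 1 lower in IMP1 IP, and 9 were higher and 2 lower in IMP2 IP. Of 12 genes of propeptide cleavage and crosslinking, 10 were higher and 0 lower in IMP1 IP, and 5 were higher and 3 lower in IMP2 IP. Of 10 receptor and uptake genes, 6 were higher and 2 lower in IMP1 IP, and 3 were higher and 6 lower in IMP2 IP. Over these 48 genes the IMP2 IP calls were 27 higher and 13 lower, while the 20 collagen chains above the filter's minimum in all 9 libraries had 0 higher and 14 lower. The 48 genes were not restricted to that minimum in all 9 libraries, and Itga2, among the lower calls, passed the filter only through IgG. Between IMP1 IP and IMP2 IP the 48 genes had 23 higher and 18 lower (median log2 fold change 0.07), against 20 of those 20 collagen chains higher.
Named at the ends of these lists were genes close to the chains in function. Plod2, a lysyl hydroxylase, was the highest modification gene in IMP1 IP (0.79 over IgG IP and 0.88 over IMP2 IP), and P4ha3, a prolyl hydroxylase subunit, was the lowest in IMP1 IP (-1.09 over IgG IP and -0.76 over IMP2 IP) and in IMP2 IP (-0.33). Crtap, part of the prolyl 3-hydroxylation complex, was the highest in IMP2 IP (1.12). Among chaperones and export genes, Sec23a, a vesicle coat protein, led in IMP1 IP (0.72), Ppib, a proline isomerase, led in IMP2 IP (0.91), and Rrbp1, a ribosome receptor of the endoplasmic reticulum, was lowest in both (-1.12 and -0.84). Mia3, which packs procollagen for export, was the highest of that list in IMP1 IP over IMP2 IP (0.74), and Creb3l1 the lowest (-1.2). Among cleavage and crosslinking genes, Tll1 was the highest in IMP1 IP (1.07) and Loxl4 the lowest called (0.27), Pcolce2 and Adamts3 were the ends in IMP2 IP (0.92 and -0.55), and Adamts3 and Mep1a were the ends of IMP1 IP over IMP2 IP (1.45 and -1.12). Among receptors, Itgb1 was the highest in IMP1 IP (0.79) and Cd44 in IMP2 IP (0.44). Itga2 was the lowest over IgG IP in both, at -1.17 for IMP1 IP and -2.60 for IMP2 IP. It passed only through the IgG libraries, so its direction over IgG IP is set by the filter and is not counted as a finding. Itga2 and Adgrg1 were the ends of IMP1 IP over IMP2 IP (1.43 and -0.52).
The cartilage collagens, of which 6 were tested, were 2 higher and 1 lower in IMP1 IP, and 0 higher and 4 lower in IMP2 IP. Col11a1, a cartilage fibrillar chain, was the highest of those called in both (0.57 for IMP1 and -0.80 for IMP2), and Col11a2 the lowest (-0.47 for IMP1 and -2.04 for IMP2). Between IMP1 IP and IMP2 IP 4 of 6 were higher and 0 lower, the 4 ranging from Col2a1 (0.53) to Col11a2 (1.57).

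The IP levels were then set beside wild-type total RNA, as the log2 ratio of the mean CPM of 3 IP libraries over the mean CPM of the 2 WT libraries, with TMM scaling over those 11 libraries and 0.5 CPM added. The 2 WT libraries are 1 each of 2 wild types and IP and total RNA were prepared differently, so these ratios are given as values with no test. Of 29 chains measured, 1 was 2-fold or more higher and 10 lower in IMP1 IP, against 23.9% higher and 30.7% lower of 16157 genes. In IMP2 IP 0 were higher and 18 lower (18.4% and 24.9% of all genes), and in IgG IP 4 were higher and 15 lower (29.5% and 29.7%). The 4 were Col6a3 (1.79), Col20a1 (1.57), Col4a4 (1.17) and Col17a1 (1.05). Col4a4 and Col20a1 passed the filter only with the help of the IgG libraries, so their direction here is not counted as a finding. Col15a1 and Col24a1, lower in all 3 IPs, passed only with the help of the WT libraries, and their direction is not counted either. The count of 1 higher in IMP1 IP became 2 without IMP1 IP replicate 2, the 0 in IMP2 IP became 1 without the IMP2 WT library, and the 4 in IgG IP became 2 without the IMP1 WT library.
Col3a1 stood apart from its class. It averaged 98.5 CPM in IMP1 IP, 42.6 CPM in IMP2 IP and 60.2 CPM in IgG IP, against 3166 CPM in WT total RNA. The log2 ratios were -5.00 in IMP1 IP, -6.20 in IMP2 IP and -5.71 in IgG IP, below the 2.5th percentile of all genes in each (-4.37, -4.25 and -4.34). Among the 79 genes with at least 1000 CPM in WT total RNA, Col3a1 ranked 5th from the lowest in IMP1 IP and 3rd from the lowest in IMP2 IP and IgG IP, with the noncoding H19 the lowest in all 3. Its neighbour Col5a2 had ratios of -0.68 in IMP1 IP, -2.05 in IMP2 IP and -1.75 in IgG IP.
Col6a3 lay at the other end. It averaged 2696 CPM in IMP1 IP, 908.8 CPM in IMP2 IP and 1767 CPM in IgG IP, against 509.1 CPM in WT total RNA, giving ratios of 2.40, 0.84 and 1.79. Its partners Col6a1 (0.28, -0.21 and 0.13) and Col6a2 (-0.30, -0.55 and -0.46) were near 0 in all 3 IPs. Col1a1 was at -1.01, -1.50 and -1.66 and Col1a2 at -0.06, -0.92 and -0.92. Col6a3 was the only 1 of the 29 chains that was 2-fold or more above WT total RNA in IMP1 IP. The low ratios of Col8a1 (-1.84, -2.38 and -2.17), Col8a2 (-2.72, -3.28 and -3.27) and Col7a1 (-2.06, -2.85 and -1.31) were also shared by all 3 IPs, IgG included.

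**Figure D3:**
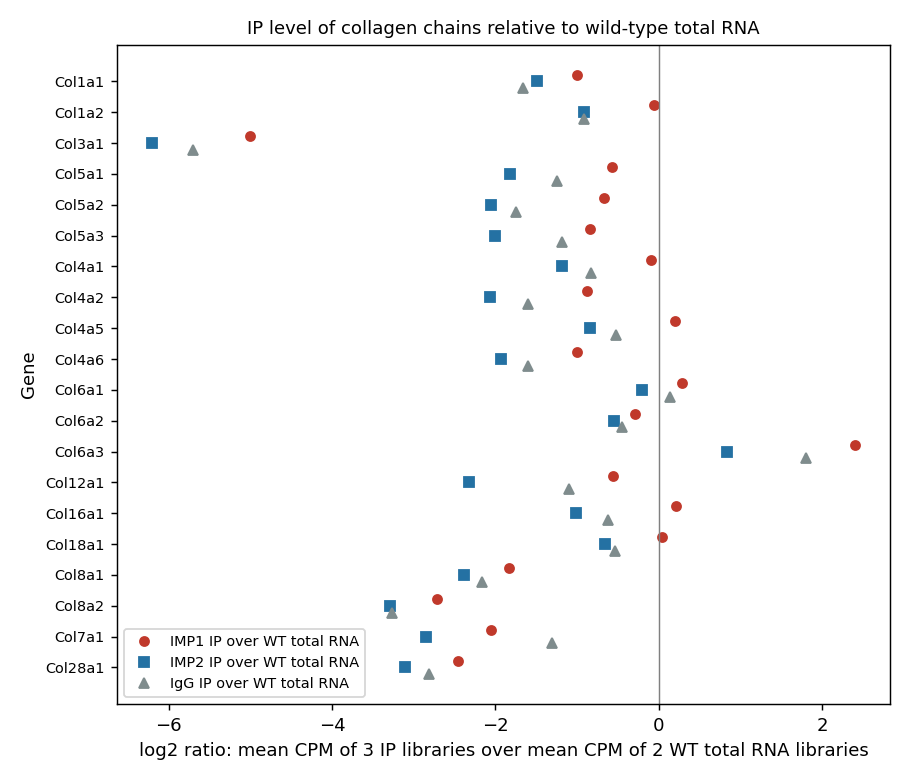
Log2 ratio of the mean CPM in IMP1 IP, IMP2 IP and IgG IP (3 libraries each) over the mean CPM of the 2 WT total RNA libraries, for the 20 chains above the count filter in all 9 IP libraries. Col3a1 lies at -5.00, -6.20 and -5.71, and Col6a3 at 2.40, 0.84 and 1.79.

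In the knockouts each group was 1 library, so there is no test and no replicate check, and differences are given as ratios of CPM with exact 95% counting intervals. A 2-fold difference was read where a gene reached 10 CPM in any total RNA library, as 24 of the 36 chains and 10324 of all genes did. In IMP1 KO 3 chains were 2-fold or more higher and 5 lower than in IMP1 WT, against 5.55% and 7.24% of all genes. In IMP2 KO 9 were higher and 2 lower than in IMP2 WT, against 7.68% and 7.77%. Col6a6, Col23a1 and Col26a1 reached 10 CPM only in IMP2 KO, and Col4a6 only in IMP1 WT. Their direction in the pair of that library is set by that level and is not counted as a finding. Col14a1 reached it only in KO libraries and Col7a1 only in WT libraries, which favours their directions in the same way. Between the wild types, IMP1 WT over IMP2 WT, 0 were higher and 2 lower (Col6a6 with 3 and 14 counts, and Col26a1 with 1 and 6 counts), against 0.475% and 0.455%. The wild types also differed within 2-fold for chains with many counts, with IMP1 WT over IMP2 WT ratios of 0.561 for Col3a1, 0.603 for Col12a1, 0.623 for Col6a3 and 0.663 for Col1a2. In bulk RNA, fewer cells of a type and less RNA per cell cannot be told apart.
Markers of other cell types differed between the same libraries. The 7 chondrocyte markers summed to 15.4 CPM in IMP1 KO and 78.2 CPM in IMP1 WT, and to 809.8 CPM in IMP2 KO and 97.4 CPM in IMP2 WT. A sum follows its most abundant genes, and the single markers did not all move with it. Of the 6 chondrocyte markers at 10 CPM, 2 were 2-fold or more higher and 4 lower in IMP1 KO, and 6 were higher in IMP2 KO. The 7 smooth muscle and pericyte markers summed to 13770 CPM in IMP1 KO and 14290 CPM in IMP1 WT, and to 1410 CPM in IMP2 KO and 10420 CPM in IMP2 WT. Of these 7, 1 was 2-fold or more higher and 2 lower in IMP1 KO, and 0 were higher and 6 lower in IMP2 KO. Of the cartilage collagens, 3 were 2-fold or more higher and 3 lower in IMP1 KO, and 7 of 8 were higher and 1 lower in IMP2 KO, where Col2a1 was 66.3-fold higher. The macrophage markers summed to 4.40 CPM in IMP1 KO and 12.3 CPM in IMP1 WT, and to 90.7 CPM in IMP2 KO and 14.97 CPM in IMP2 WT. The 7 epithelial markers summed to 2.07 CPM in IMP1 KO and 39.9 CPM in IMP1 WT, and to 3.42 CPM in IMP2 KO and 12.7 CPM in IMP2 WT. Only 1 of these 7 reached 10 CPM in a total RNA library. Osteoblast markers were at 35.2 CPM in IMP1 KO and 36.8 CPM in IMP1 WT, and at 109.8 CPM in IMP2 KO and 34.8 CPM in IMP2 WT. Schwann and neural crest markers were at 1.73 CPM in IMP1 KO and 11.98 CPM in IMP1 WT. In the IMP2 pair they were at 6.91 CPM in IMP2 KO and 10.9 CPM in IMP2 WT, and 0 of the 6 reached 10 CPM. The part of these lists in the differences of the collagen chains was not tested.

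Among fibrillar chains, those of type I were level between IMP1 KO and IMP1 WT and higher by less than 2-fold in IMP2 KO than in IMP2 WT. Col1a1 was at 10610 CPM in IMP1 KO and 10680 CPM in IMP1 WT, and at 18090 CPM in IMP2 KO and 14220 CPM in IMP2 WT. Col1a2 was at 7352 CPM in IMP1 KO and 7137 CPM in IMP1 WT, and at 13830 CPM in IMP2 KO and 10680 CPM in IMP2 WT. All 4 type I ratios lay between 0.993 and 1.29.
Col3a1 (chr1:45311538-45349706) was at 798.3 CPM in IMP1 KO and 2534 CPM in IMP1 WT, a ratio of 0.315 (0.308 to 0.322). In the other pair it was at 4971 CPM in IMP2 KO and 4459 CPM in IMP2 WT, a ratio of 1.12. Of the 6 fibrillar chains at 10 CPM it was the only 1 that was 2-fold lower in IMP1 KO. Col24a1, below that level, had 2 counts in IMP1 KO and 29 counts in IMP1 WT.
Col5a1 was at 1780 CPM in IMP1 KO and 1914 CPM in IMP1 WT, and at 1319 CPM in IMP2 KO and 2436 CPM in IMP2 WT. Col5a2 was at 2233 CPM in IMP1 KO and 3781 CPM in IMP1 WT, and at 2962 CPM in IMP2 KO and 4872 CPM in IMP2 WT. Both were lower in each KO library by less than 2-fold, with the lowest ratio 0.542 for Col5a1 in IMP2 KO. Col5a3 was at 17.7 CPM in IMP1 KO and 19.1 CPM in IMP1 WT, and at 56.5 CPM in IMP2 KO and 26.1 CPM in IMP2 WT, a ratio of 2.17 (1.93 to 2.43) in the IMP2 pair.

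The type IV pair moved together. Col4a1 was at 1954 CPM in IMP1 KO and 1390 CPM in IMP1 WT, and at 1012 CPM in IMP2 KO and 1335 CPM in IMP2 WT. Col4a2 was at 1890 CPM in IMP1 KO and 1211 CPM in IMP1 WT, and at 954.5 CPM in IMP2 KO and 1281 CPM in IMP2 WT. The ratios were 1.41 for Col4a1 and 1.56 for Col4a2 in the IMP1 pair, and 0.758 and 0.745 in the IMP2 pair, all within 2-fold. Col4a5 was at 241 CPM in IMP1 KO and 190.5 CPM in IMP1 WT, and at 167.5 CPM in IMP2 KO and 221.8 CPM in IMP2 WT. Col4a6, 1274 bases from it, was at 0.518 CPM in IMP1 KO (6 counts) and 10.2 CPM in IMP1 WT (152 counts), a ratio of 0.0506 (0.0183 to 0.113). In the IMP2 pair it was at 5.56 CPM in IMP2 KO and 9.40 CPM in IMP2 WT.

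The type VI chains differed from each other in IMP2 KO. Col6a1 was at 786.7 CPM in IMP1 KO and 622.4 CPM in IMP1 WT, and at 2440 CPM in IMP2 KO and 806 CPM in IMP2 WT. Col6a2 was at 549.3 CPM in IMP1 KO and 405.1 CPM in IMP1 WT, and at 1689 CPM in IMP2 KO and 524.4 CPM in IMP2 WT. The ratios in the IMP2 pair were 3.03 (2.97 to 3.09) for Col6a1 and 3.22 (3.14 to 3.30) for Col6a2. Col6a3 was at 293.9 CPM in IMP1 KO and 440 CPM in IMP1 WT, and at 518 CPM in IMP2 KO and 684.6 CPM in IMP2 WT. Unlike its partners, Col6a3 was lower in each KO library, with ratios of 0.668 and 0.757. Col6a6 was at 0.173 CPM in IMP1 KO (2 counts) and 0.202 CPM in IMP1 WT (3 counts), and at 13.8 CPM in IMP2 KO and 0.822 CPM in IMP2 WT, a ratio of 16.7 (9.76 to 31.1) in the IMP2 pair.

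Among fibril-associated chains, Col12a1 (chr9:79598987-79721141) was at 7695 CPM in IMP1 KO and 1801 CPM in IMP1 WT, and at 2228 CPM in IMP2 KO and 2941 CPM in IMP2 WT. It was 4.27-fold (4.21 to 4.33) higher in IMP1 KO, and its ratio in the IMP2 pair was 0.758. Col14a1 (chr15:55307644-55520803), which also coats fibres, was at 84.4 CPM in IMP1 KO and 4.24 CPM in IMP1 WT, and at 134.5 CPM in IMP2 KO and 5.23 CPM in IMP2 WT. It was higher in each KO library, 19.9-fold (15.4 to 26.1) in IMP1 KO and 25.7-fold (20.8 to 32.2) in IMP2 KO. Col16a1 was at 154.6 CPM in IMP1 KO and 191.2 CPM in IMP1 WT, and at 365.7 CPM in IMP2 KO and 231.5 CPM in IMP2 WT, within 2-fold in both pairs.

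In type VIII the chains parted. Col8a1 was at 511.5 CPM in IMP1 KO and 590.9 CPM in IMP1 WT, and at 214.1 CPM in IMP2 KO and 647.4 CPM in IMP2 WT. Its ratio was 0.331 (0.318 to 0.344) in the IMP2 pair. Col8a2 (chr4:126286794-126314330) was at 160.7 CPM in IMP1 KO and 17.4 CPM in IMP1 WT, and at 244.6 CPM in IMP2 KO and 26.0 CPM in IMP2 WT. It was 9.22-fold (8.09 to 10.5) higher in IMP1 KO and 9.40-fold (8.52 to 10.4) higher in IMP2 KO.
Col7a1 was at 7.77 CPM in IMP1 KO and 36.6 CPM in IMP1 WT, and at 1.41 CPM in IMP2 KO and 34.1 CPM in IMP2 WT. It was lower in each KO library, with ratios of 0.212 (0.168 to 0.266) and 0.0413 (0.026 to 0.0625). Col18a1 was at 36.3 CPM in IMP1 KO and 75.8 CPM in IMP1 WT, a ratio of 0.479 (0.428 to 0.537), and at 139.5 CPM in IMP2 KO and 87.3 CPM in IMP2 WT, a ratio of 1.60.
Col23a1, a transmembrane collagen, was at 0.604 CPM in IMP1 KO (7 counts) and 3.03 CPM in IMP1 WT (45 counts), a ratio of 0.199 (0.0759 to 0.445). In the IMP2 pair it was at 50.3 CPM in IMP2 KO and 1.59 CPM in IMP2 WT, a ratio of 31.7 (21.6 to 48.4), so the library pairs pointed in opposite directions. Col26a1 (chr5:136741759-136883376) was at 89.1 CPM in IMP2 KO (1458 counts) and 0.352 CPM in IMP2 WT (6 counts), a ratio of 253 (116 to 690), with 1 count each in IMP1 KO and IMP1 WT. Col28a1 was at 6.91 CPM in IMP1 KO and 9.96 CPM in IMP1 WT, and at 36.2 CPM in IMP2 KO and 15.6 CPM in IMP2 WT, a ratio of 2.32 (2.00 to 2.69) in the IMP2 pair.
In all, 15 of the 24 chains were 2-fold or more apart in 1 pair or the other and 4 in both. The counts include Col4a6, Col6a6, Col7a1, Col14a1, Col23a1 and Col26a1, which reached 10 CPM in KO libraries only or in WT libraries only. Over all genes 12.8% were 2-fold or more apart in the IMP1 pair and 15.4% in the IMP2 pair. The share of all genes in either or in both was not counted. Col14a1 and Col8a2 were higher in both and Col7a1 lower in both, and Col23a1 went in opposite directions. The other 9 chains were within 2-fold in both pairs. The 12 chains under 10 CPM in every total RNA library were at or below 2.16 CPM there.

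**Figure D4:**
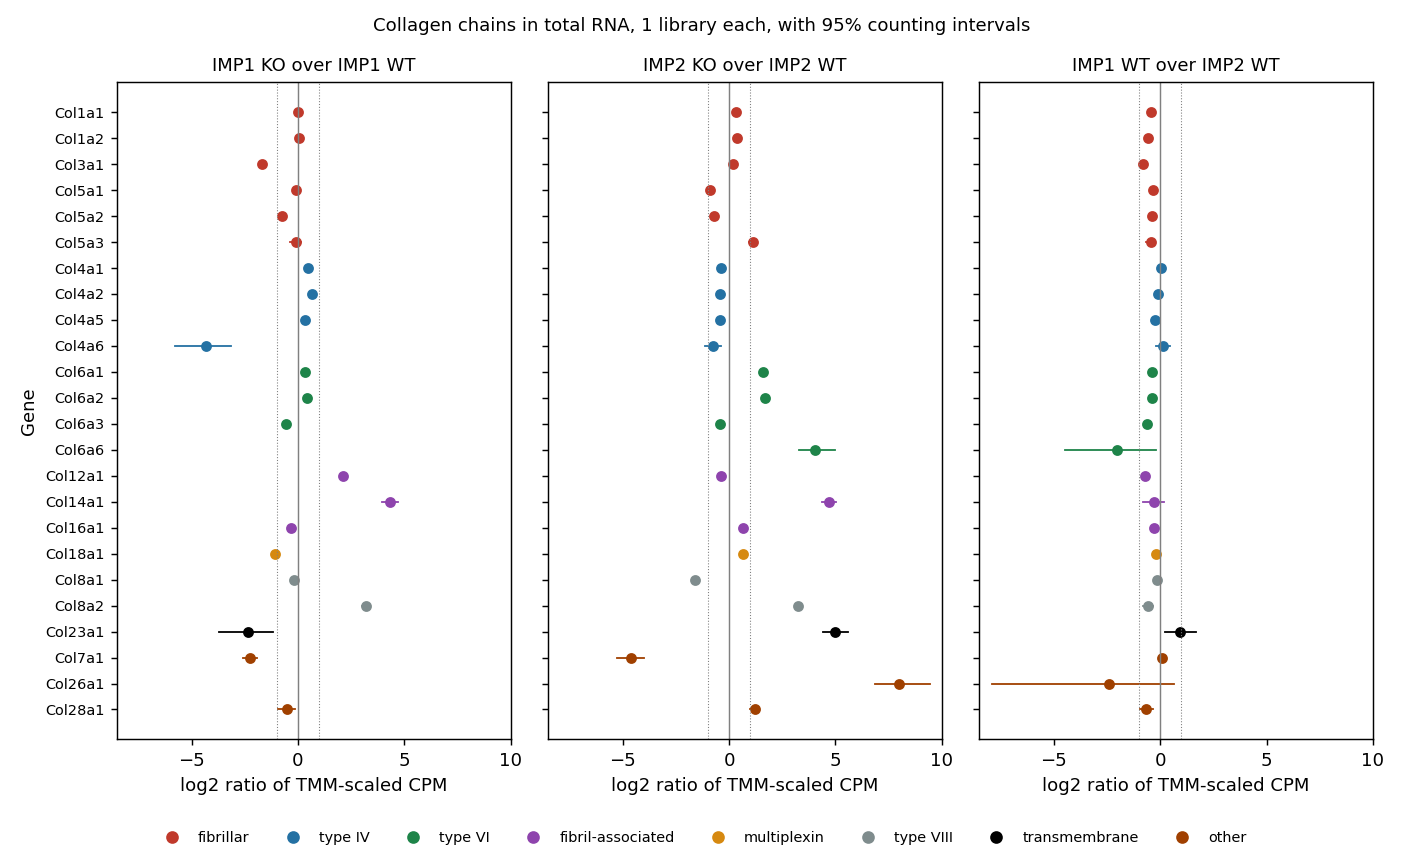
Log2 ratio of CPM in total RNA for the 24 collagen chains with at least 10 CPM in 1 of the 4 total RNA libraries, for IMP1 KO over IMP1 WT, IMP2 KO over IMP2 WT and IMP1 WT over IMP2 WT, 1 library each. Lines are exact 95% counting intervals, dotted lines mark 2-fold, and pairs with at most 3 counts in both libraries are not drawn. In the wild-type pair Col3a1 lies at -0.82 and Col12a1 at -0.71, while Col14a1 and Col8a2 lie far to the right in both KO pairs.

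Of the genes that process collagen, some of those past 2-fold in a KO pair are named here, chosen after their values were seen. Of 13 modification genes at 10 CPM, 1 was 2-fold or more higher in IMP1 KO (Plod2, at 450.8 CPM in IMP1 KO and 193.5 CPM in IMP1 WT) and 0 lower. In IMP2 KO 2 were higher (P4ha3 and P3h2) and 0 lower. Of 13 chaperone and export genes, 0 were past 2-fold in IMP1 KO and 1 (Larp6, which binds type I collagen messages) was higher in IMP2 KO. Of 12 cleavage and crosslinking genes, 2 were higher and 3 lower in IMP1 KO, and 3 were higher and 5 lower in IMP2 KO. Lox, the lysyl oxidase that starts crosslinking, was at 8675 CPM in IMP1 KO and 6461 CPM in IMP1 WT, and at 2011 CPM in IMP2 KO and 8243 CPM in IMP2 WT. Of its relatives in IMP2 KO, Loxl1, Loxl2 and Loxl3 had ratios of 0.474, 0.101 and 0.409. Adamts2, which cleaves the propeptides of fibrillar collagens, was at 401.7 CPM in IMP1 KO and 44.4 CPM in IMP1 WT, and at 137.9 CPM in IMP2 KO and 61.8 CPM in IMP2 WT. Of 9 receptor and uptake genes, 1 was higher and 3 lower in IMP1 KO, and 3 were higher and 4 lower in IMP2 KO.

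Chains of 1 molecule were last compared as ratios of their counts within each library. Since gene lengths differ, a ratio by itself is not a chain ratio, and ratios are read between libraries. IP and total RNA were prepared differently, and whether recovery by length differs between them was not tested. The ratios are given as values with no test. The log2 ratio of Col6a3 to Col6a1 was 1.78 ± 0.0135 in IMP1 IP, 0.70 ± 0.0442 in IMP2 IP and 1.32 ± 0.0168 in IgG IP (SD, n = 3 each). In total RNA it was -1.42 in IMP1 KO and -0.50 in IMP1 WT, and -2.24 in IMP2 KO and -0.24 in IMP2 WT. The 3 IP groups did not overlap, and both KO libraries were below their WT.
The ratio of Col4a1 to Col4a2 was 0.91 ± 0.0543 in IMP1 IP, 1.01 ± 0.0269 in IMP2 IP and 0.90 ± 0.0369 in IgG IP, on the log2 scale. In total RNA it was 0.05 in IMP1 KO, 0.20 in IMP1 WT, 0.08 in IMP2 KO and 0.06 in IMP2 WT. All 9 IP libraries were thus above all 4 total RNA libraries, whichever antibody was used. Col6a1 to Col6a2 showed the same order, with 1.196 ± 0.0573 in IMP1 IP, 0.97 ± 0.0212 in IMP2 IP and 1.21 ± 0.0454 in IgG IP, against 0.52 to 0.62 in total RNA.
The type I ratio, Col1a1 to Col1a2, was -0.47 ± 0.0371 in IMP1 IP, -0.10 ± 0.0376 in IMP2 IP and -0.25 ± 0.0108 in IgG IP. In total RNA it was 0.53 in IMP1 KO and 0.58 in IMP1 WT, and 0.39 in IMP2 KO and 0.41 in IMP2 WT. The 3 IP groups did not overlap, and KO minus WT was -0.05 in the IMP1 pair and -0.03 in the IMP2 pair. Col5a2 to Col5a1 was 0.89 ± 0.0259 in IMP1 IP, 0.76 ± 0.0032 in IMP2 IP and 0.49 ± 0.0336 in IgG IP, and in total RNA it was 0.33 in IMP1 KO and 0.98 in IMP1 WT, and 1.17 in IMP2 KO and 1.00 in IMP2 WT. Col8a2 to Col8a1 was -1.67 in IMP1 KO and -5.08 in IMP1 WT, and 0.19 in IMP2 KO and -4.64 in IMP2 WT, differences of 3.41 and 4.83. In the IPs it stayed between group means of -6.30 and -5.94.

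**Figure D5:**
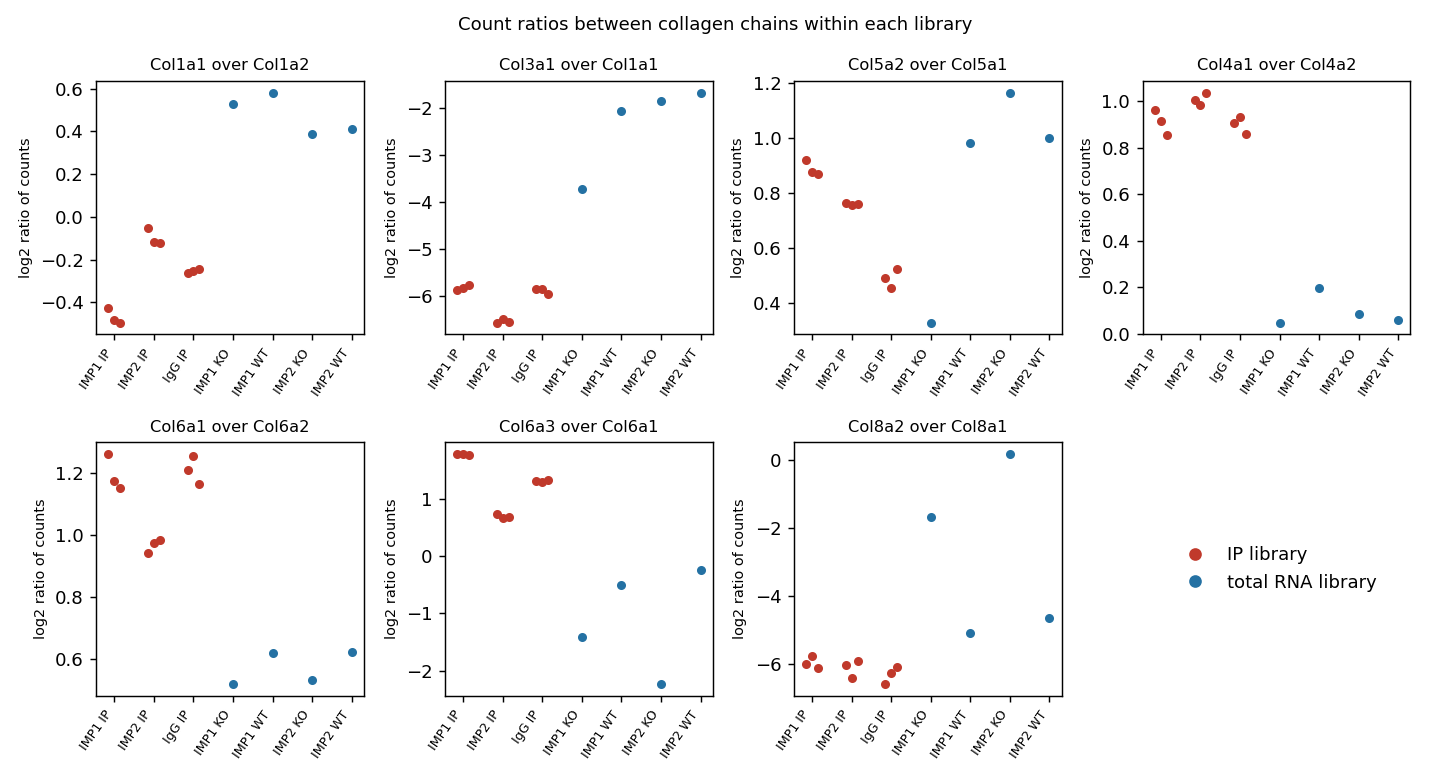
Log2 ratio of counts between chain pairs in each library, for the 9 IP libraries and the 4 total RNA libraries (1 point a library). Col6a3 over Col6a1 is highest in IMP1 IP (mean 1.78) and lowest in IMP2 KO (-2.24), and Col4a1 over Col4a2 is near 1 in the IP libraries and near 0 in total RNA.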

How the data were processed

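RNA from 9 IP libraries and 4 total RNA libraries of mouse embryonic fibroblasts was analysed. The deposited values are raw read counts per Ensembl gene, 1 file a library, from STAR alignment to mm10 and HTSeq counting, per the submitters' processing notes. Versions and whether counting used strand are not given in the sources used here. The 5 tally lines of each file (reads outside genes, ambiguous or not unique) were left out of library sizes, and 42462 of 43629 genes were given a symbol. Reads shared with overlapping genes or their antisense partners cannot be told apart.

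IP libraries were tested in 1 model over the 3 groups with edgeR 4.0.16 (R 4.3.3, limma 3.58.1), with TMM scaling, the default filter on low counts by group, a two-sided quasi-likelihood test and Benjamini-Hochberg adjustment over all 14076 genes, called at 0.05. DESeq2 1.42.0, other scalings, filters, a replicate block and each library left out were alternatives. CPM are TMM-scaled within the IP or the total RNA libraries. KO ratios use a prior count of 2 for log2 values and exact binomial 95% intervals, read at 10 CPM and 2-fold. Chain ratios are ratios of counts and are not corrected for length. Python 3.11.15 with pandas 2.3.3, scipy 1.17.1 and matplotlib 3.10.9 was used, and the count model was tested on simulated data.

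The collagen chains, the gene lists and the markers were chosen with earlier results of these data known. Values in every library are given for chains with at least 10 CPM in 1 of the 13 libraries. Full statistics are given for the highest and lowest chain of the fibrillar, type IV, type VI and fibril-associated classes in each IP comparison, and for KO ratios past 2-fold. Of each other list, the highest and lowest called gene in each IP comparison is named.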

Additional observations from a re-analysis of the deposited data

Results flagged for a closer look

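A group of 13 collagen chains was called higher in IMP1 IP and lower in IMP2 IP, each against IgG IP, by edgeR's quasi-likelihood test. Chains chosen in this way had to differ between IMP1 IP and IMP2 IP, so that difference is given as a value only. Over all genes tested 31.7% were higher in IMP1 IP and 37.3% were lower in IMP2 IP. The share of all genes with both calls was not counted, so how common this pattern is outside the collagens is not known here. On the log2 scale IMP1 IP over IMP2 IP was 1.18 for Col3a1, 1.21 for Col5a1, 1.34 for Col5a2 and 1.21 for Col5a3 among fibrillar chains. It was 1.05 for Col4a1, 1.15 for Col4a2 and 1.00 for Col4a5 in type IV. In type VI it was 0.44 for Col6a1, 0.22 for Col6a2 and 1.53 for Col6a3. It was 1.72 for Col12a1, 1.18 for Col16a1 and 0.50 for Col8a1. Col6a2 turned to -0.11 under total count scaling.

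For 7 chains the 2 knockout pairs had log2 ratios of opposite sign, with 2-fold or more in at least 1 pair. With 1 library a group, the difference was not tested. How many of all genes had opposite signs in this way was not counted. Col6a6 and Col23a1 reached 10 CPM only in IMP2 KO, so their direction in the IMP2 pair is set by that level. As log2 ratios of KO over WT, Col3a1 was at -1.67 in the IMP1 pair and 0.16 in the IMP2 pair. Col5a3 was at -0.11 and 1.11, Col6a6 at -0.13 and 3.86, and Col12a1 at 2.09 and -0.40, in the same order of pairs. Col18a1 was at -1.06 and 0.68, Col23a1 at -2.10 and 4.87, and Col28a1 at -0.52 and 1.2. The IMP1 pair of Col6a6 rests on 2 counts in IMP1 KO and 3 counts in IMP1 WT, and the interval of the Col5a3 ratio in that pair (0.769 to 1.11) holds 1, so the direction of both is not resolved there. The chondrocyte marker sum was 15.4 CPM in IMP1 KO and 78.2 CPM in IMP1 WT, and 809.8 CPM in IMP2 KO and 97.4 CPM in IMP2 WT, and its part in these ratios was not tested. The single chondrocyte markers were split in IMP1 KO, with 2 that were 2-fold or more higher and 4 lower.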

How the results depend on the processing

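Across the alternatives, 421 values that answer a comparison stayed within a set distance of the main value and 24 moved past it. Of single chains and classes 1903 kept their call or stayed near the main value, 90 moved, 47 reversed, 29 gained and 37 lost a call. For single chains in the IPs, a change of sign without a call was not counted as reversed. The cause was not tested for those below. Under upper quartile scaling, IMP1 IP against IgG IP had 2952 genes higher, and the type VI median was -0.0562, with Col6a1 at -0.0686 and Col6a2 at -0.0562, while Col1a2 in IMP2 IP was at -0.18. Under total count scaling the type VI median was -0.039, Col6a1 was at -0.0514 and Col6a2 at -0.039 in IMP1 IP. In IMP2 IP against IgG IP it gave 2 chains higher, a multiplexin median of 0.0371, a type VIII median of 0.0542 and Col6a2 at 0.0728. In IMP1 IP over IMP2 IP it gave 2908 genes higher, 1 chain lower (Col6a2, -0.11) and a transmembrane median of -0.0508. With no count filter the fibril-associated median in IMP1 IP was 0.0093, and 2 chains were higher in IMP2 IP. With at least 10 CPM in 3 libraries, where fewer genes are tested, 1 chain was lower in IMP1 IP, the medians were -0.0278 for type VI and 0.49 for fibril-associated chains, and Col6a1 and Col6a2 were at -0.0403 and -0.0278. In IMP2 IP that filter gave 7240 genes called, 3761 higher and 3479 lower, with Col1a2 at -0.17.

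With wild-type total RNA in place of IgG IP, IMP1 IP had 13903 of 16157 genes called, 6687 higher and 7216 lower, with 6 chains higher and 17 lower. The 2 WT libraries, 1 each of 2 wild types and prepared differently from the IPs, stood as 1 group in this fit. These calls therefore do not measure the spread of replicates of 1 wild type, and the changes are read as values. Medians were -0.78 for fibrillar, -0.10 for type IV and -2.39 for type VIII chains. Chains that reversed were Col1a1 (-1.01), Col1a2 (-0.06), Col3a1 (-5.01), Col5a1 (-0.57), Col5a2 (-0.68), Col5a3 (-0.88), Col4a1 (-0.10), Col4a2 (-0.88), Col4a4 (0.0857), Col4a6 (-1.08), Col6a2 (-0.30), Col12a1 (-0.57), Col20a1 (1.39), Col8a1 (-1.84), Col8a2 (-2.94) and Col28a1 (-2.77). In IMP2 IP 1 chain was higher, with Col1a1 at -1.50, Col1a2 at -0.92, Col6a3 at 0.84 and Col17a1 at 0.31.

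Leaving out 1 IP library at a time gave 16 to 18 chains higher and 5 to 5 lower in IMP1 IP against IgG IP, 0 to 1 higher and 18 to 21 lower in IMP2 IP against IgG IP, and 22 to 25 higher in IMP1 IP over IMP2 IP. These counts are over all 25 chains tested. In the main fit, 4 of the 5 lower in IMP1 IP and 5 of the 19 lower in IMP2 IP were outside the 20 chains above the minimum throughout. Except for Col17a1, those passed only with the help of IgG, so the filter set their direction. The fibril-associated median in IMP1 IP, which includes Col14a1 and Col20a1 that passed through IgG, ranged between -0.2262 (without IMP1 IP replicate 3) and 0.0708 (without IMP1 IP replicate 1). Col1a2 in IMP2 IP ranged between -0.1079 (without IMP2 IP replicate 1) and 0.0987 (without IMP2 IP replicate 2). Leaving out replicate 1 of IMP1 IP and IMP2 IP together, chosen after seeing the data, gave a fibril-associated median of 0.0757 and Col1a2 at -0.11. Over WT total RNA, also chosen after seeing the data, leaving out a library gave 1 to 2 chains higher in IMP1 IP, 0 to 1 in IMP2 IP and 2 to 4 in IgG IP. Same-numbered IP libraries did not deviate together (correlations of -0.059 to 0.073), so the numbers were not read as pairs. With the replicate block, 1 chain (Col1a1, 0.15) was higher in IMP2 IP, and 9017, 10961 and 10067 genes were called in the 3 comparisons, against 8948, 10927 and 10053 without it. A minimum of 1 CPM gave 6 chains higher in IMP1 KO, and a 1.5-fold threshold gave 5 lower in IMP2 KO. The alternative with a transcript-length trend was not run, since the reference used here gave no transcript lengths. Chains under about 1 CPM rest on few counts, and KO ratios have no replicate.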
